A study of Mus musculus with 15 samples.

Results

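The cytosolic ribosomal protein genes were examined in mouse testis. They were taken as the protein-coding genes with a symbol of Rpl or Rps and a number, together with Rplp0, Rplp1, Rplp2 and Rpsa, and without the Rps6 kinases, Rps19bp1 and names that mark a pseudogene. This gave 87 of the 23510 gene rows measured, of which 51 encode proteins of the large subunit, 33 proteins of the small subunit and 3 proteins of the P stalk. RNA was sequenced from 15 testis libraries in 5 groups of 3, all from the outbred ICR mouse stock. MNC testes received the vector control lentivirus, and M1, M3 and M5 testes received lentivirus with shRNAs against the muscarinic acetylcholine receptor of that name. Per the study's methods, males of 5 weeks were injected and testes were collected 10 days later. Viruses for 3 shRNAs per receptor were mixed. The share of infected cells is not given, and a library holds RNA of the whole tissue. Con is labelled a control, with no further treatment given. The labels do not say that the 3 libraries of a group came from separate animals, so p-values measure the spread between these libraries. In tissue RNA, a change in the number of cells of a type and a change in RNA per cell cannot be told apart.

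A ribosome has a small subunit, which reads the mRNA, and a large subunit, which joins amino acids. Each ribosomal protein is needed in about equal numbers, so their genes are among the most highly and most evenly expressed of a cell, and many of their mRNAs begin with a pyrimidine run through which mTOR signalling and Larp1 control translation. The testis is unusual because the X chromosome is silenced in spermatocytes. Autosomal copies of the X-linked genes Rpl10, Rpl39 and Rpl36a, named Rpl10l, Rpl39l and Rpl36al, are known, and Rpl10l and Rpl39l are used mainly in male germ cells.

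Expression was analysed as FPKM, which is scaled by gene length and library total, so levels can be compared between genes. Relative depth was estimated from the steps between low values, at 0.942 to 1.00 of the median over the libraries. Only values close to the lowest of a gene were used, so this estimate could not show a large difference in depth. The absolute depth is unknown. The receptor transcripts were too low to check the labels: over all 15 libraries Chrm1 ranged from 0.06 to 0.17 FPKM, Chrm3 from 0.01 to 0.11 and Chrm5 from 0.19 to 0.43. Markers of testis cell types were present throughout, with summed levels of 991 to 1226 FPKM for 8 spermatocyte genes, 431 to 793 for 8 Sertoli cell genes and 658 to 3180 for 6 Leydig cell genes. Some libraries stood apart. M5 replicate 3 had the highest summed Leydig cell (3180 FPKM), macrophage (141 FPKM), Sertoli cell (793 FPKM) and red blood cell (491 FPKM) markers, and Con had the lowest elongating spermatid sums, at 16662, 11414 and 22092 FPKM against 22802 to 31864 in the other groups. M3 replicate 3 differed from its group in many ribosomal protein genes, as given below. The part of these differences in the results was not tested.

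The coding sequences of the X-linked genes and their autosomal copies are shown because the ratio of the copies is followed across the libraries. They were read from GENCODE vM21 transcripts (GRCm38), 5′ to 3′, and capitals mark the bases that differ within a pair. Rpl39 (chrX:37082518-37085222) and Rpl39l (chr16:10170197-10174911) are given whole, with 23 differing bases of 156, 85.3% identity and 3 codons that differ in their residue.
Rpl39: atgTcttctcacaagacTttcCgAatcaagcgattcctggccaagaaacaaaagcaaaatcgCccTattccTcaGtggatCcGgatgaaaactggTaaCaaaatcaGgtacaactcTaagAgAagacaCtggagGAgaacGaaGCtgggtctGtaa
Rpl39l: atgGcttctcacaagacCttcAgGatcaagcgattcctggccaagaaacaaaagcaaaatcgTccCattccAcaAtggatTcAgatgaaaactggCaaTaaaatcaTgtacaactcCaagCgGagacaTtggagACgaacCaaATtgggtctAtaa
Of Rpl10 (chrX:74270816-74273135) and Rpl10l (chr12:66283379-66284401), the first 90 coding bases are given. Over all 645 coding bases they are 84.8% identical, with 96 differing codons of which 3 differ in their residue.
Rpl10: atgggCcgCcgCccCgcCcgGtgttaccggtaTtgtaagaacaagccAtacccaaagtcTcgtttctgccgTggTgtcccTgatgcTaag
Rpl10l: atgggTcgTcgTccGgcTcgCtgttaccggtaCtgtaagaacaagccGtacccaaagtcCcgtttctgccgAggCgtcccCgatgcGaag
The first 90 coding bases of Rpl36a (chrX:134585654-134588062) and Rpl36al (chr12:69182734-69184067) follow. Over 321 coding bases they are 87.9% identical, and all 38 differing codons keep their residue.
Rpl36a: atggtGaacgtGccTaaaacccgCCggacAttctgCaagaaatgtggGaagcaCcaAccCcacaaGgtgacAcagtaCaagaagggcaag
Rpl36al: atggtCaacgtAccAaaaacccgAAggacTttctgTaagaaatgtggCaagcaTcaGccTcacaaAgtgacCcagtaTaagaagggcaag
All 3 pairs lie below the 95% identity that was used to mark near copies.

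Copies of ribosomal protein mRNAs are common in the genome, and 79 of the 87 genes had at least 1 other annotated gene or pseudogene with 95% identity or more over at least 80% of the coding bases. The median was 5 such copies, and Rpl21 had the most, at 57. For 10 genes such a copy was a row of its own in the table, so the division of reads between the rows is uncertain. Rps6 (chr4:86854099-86857367), the protein phosphorylated by the S6 kinases, is the clearest case. The processed pseudogene Rps6-ps4 (chr2:75190995-75191854) matches all 750 of its coding bases, and the first 90 are the same in both.
Rps6 and Rps6-ps4: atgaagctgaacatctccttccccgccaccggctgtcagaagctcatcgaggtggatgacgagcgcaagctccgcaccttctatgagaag
The Rps6 row had a mean of only 3.78 FPKM over the 15 libraries, and the Rps6-ps4 row had 278 FPKM. Rpl34 had 7.86 FPKM against 233 FPKM for Rpl34-ps1, with 99.4% of coding bases identical. Rpl37rt, which is 99.7% identical to the coding sequence of Rpl37, had 3.02 FPKM against 116 FPKM for Rpl37.

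Most members were expressed at a high level. The median of their means over the 15 libraries was 175.5 FPKM. In all, 84 had a mean of 1 FPKM or more, 56 had 100 FPKM or more and 14 had 300 FPKM or more. Rpl41, whose product is a peptide of 25 residues, was highest with a mean of 771 FPKM. It stood at 606, 556 and 622 FPKM in Con, 737, 748 and 782 in MNC, 779, 709 and 752 in M1, 637, 658 and 1032 in M3 and 991, 976 and 981 in M5. The M5 libraries and M3 replicate 3 were the 4 highest, and Con the lowest. Rplp0 of the P stalk, the arm that recruits translation factors, followed with a mean of 475 FPKM. Rps27 had 459 FPKM and Rpl32 458 FPKM, a difference far below the spread between libraries.

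The lowest members were Rpl3l, the muscle form of Rpl3, with 0.260 to 0.690 FPKM, and Rpl32l and Rps23rg1, with means of 0.0773 and 0.0387 FPKM. These 3 fell below the mean of 1 FPKM needed for a test. Their parent genes Rpl32 and Rps23 had means of 458 and 394 FPKM.

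Rplp0 was at 477, 472 and 512 FPKM in Con, 357, 467 and 503 in MNC, 467, 462 and 450.0 in M1, 460.5, 474 and 512 in M3 and 484, 499 and 534 in M5. MNC replicate 1 was the lowest, and the groups overlapped. Rplp1 was at 398, 387 and 397 FPKM in Con, 384, 369 and 381 in MNC, 389, 396 and 362 in M1, 359, 369 and 398 in M3 and 384, 393 and 446 in M5. Rplp2 was at 222, 225 and 208 FPKM in Con, 229, 203 and 222 in MNC, 217, 206 and 198 in M1, 195, 211 and 286 in M3 and 284, 267 and 314 in M5, so that the M5 libraries lay above all MNC, M1 and Con libraries. M3 replicate 3 also lay in the M5 range. Rpsa, a small subunit protein also known as the laminin receptor, was at 90.7, 96.2 and 90.5 FPKM in Con, 75.9, 98.3 and 96.3 in MNC, 99.9, 106 and 95.4 in M1, 94.5, 99.8 and 109 in M3 and 105, 87.1 and 60.3 in M5. Its lowest value was in M5 replicate 3, against the direction of most members there.

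The share of all expression given to ribosomal proteins varied little. The summed FPKM of the 87 genes was 3.25, 3.29 and 3.15% of the library total in Con, 3.18, 2.96 and 2.99% in MNC, 2.97, 3.09 and 2.88% in M1, 2.90, 2.93 and 3.20% in M3 and 3.34, 3.29 and 3.63% in M5, in the order of replicates 1 to 3. M5 lay above MNC, M1 and M3, and its lowest library and the highest Con library were both at 3.29%. The ratio of small to large subunit sums was 0.631 to 0.707 over the libraries. Of the 80 genes with a mean of 10 FPKM or more, 44 had their highest value in M5 replicate 3, 7 in M3 replicate 3 and 6 in MNC replicate 1, while 18 had their lowest in M1 replicate 3. Their median coefficient of variation over the 15 libraries was 10.6%, beside 11.3% for the 6798 genes of that level.

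**Figure D1:**
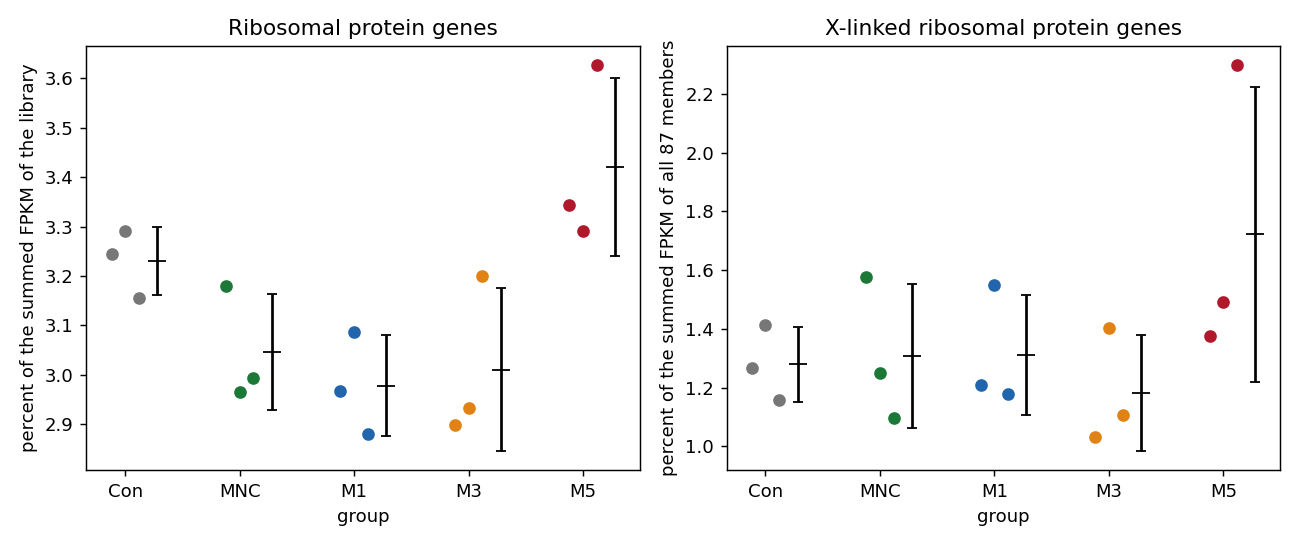
Share of ribosomal protein genes in each library by group. The left panel gives the percent of the summed FPKM of a library held by the 87 genes, and the right panel the percent of that sum held by the 4 X-linked members; points are libraries, and bars give the mean and SD of 3. M5 lies at 3.29% to 3.63% on the left, and M5 replicate 3 stands highest on the right at 2.30%.

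The 4 X-linked members, Rpl10, Rpl39, Rpl36a and Rps4x, were more variable than most. Together they held 1.03% to 2.30% of the ribosomal protein sum. Rpl10, a large subunit protein close to the catalytic centre, was at 79.7, 91.6 and 71.6 FPKM in Con, 89.8, 69.1 and 63.9 in MNC, 68.5, 81.3 and 64.7 in M1, 56.2, 74.3 and 65.5 in M3 and 83.1, 88.4 and 149.5 in M5. Rpl39, a small protein of the exit tunnel, was at 37.7, 40.1 and 32.1 FPKM in Con, 53.9, 36.3 and 31.2 in MNC, 38.2, 55.7 and 34.5 in M1, 33.05, 41.8 and 40.3 in M3 and 52.5, 59.1 and 87.00 in M5. Rpl36a was at 28.98, 34.5 and 30.9 FPKM in Con, 41.96, 33.7 and 27.8 in MNC, 27.2, 39.8 and 30.03 in M1, 24.5, 36.01 and 37.1 in M3 and 46.7, 46.05 and 82.01 in M5. Rps4x was at 48.5, 52.3 and 42.1 FPKM in Con, 65.5, 46.6 and 43.03 in MNC, 48.6, 64.02 and 40.9 in M1, 36.05, 52.9 and 38.9 in M3 and 50.6, 56.97 and 94.8 in M5. All 4 had their highest value in M5 replicate 3, the library with the highest Leydig cell and macrophage marker sums. The other M5 libraries overlapped the remaining groups in Rpl10, Rpl39 and Rps4x, and lay just above them in Rpl36a. Against MNC limma called none of the 4 in M5, and 2 had an unadjusted p under 0.05 and were higher, as 12.5% of all genes were. The differences on the log2(FPKM + 1) scale were 0.48 (SE 0.241) for Rpl10, 0.70 (SE 0.250) for Rpl39, 0.71 (SE 0.252) for Rpl36a and 0.35 (SE 0.260) for Rps4x. Their limma adjusted p ran from 0.147 to 0.456.

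The autosomal copies had patterns of their own. Rpl39l was at 201, 201 and 212 FPKM in Con, 185, 184 and 183 in MNC, 208, 188 and 190.3 in M1, 221, 199 and 225 in M3 and 219.7, 218 and 175 in M5. It was the main form in every library, with a ratio to Rpl39 from 2.01 in M5 replicate 3 to 6.69 in M3 replicate 1. Rpl10l was at 89.5, 113 and 111 FPKM in Con, 72.3, 90.6 and 95.5 in MNC, 83.1, 118 and 98.8 in M1, 119, 121 and 147 in M3 and 128, 84.5 and 75.8 in M5. Its ratio to Rpl10 was 1.54, 0.96 and 0.51 in M5 and 2.11, 1.63 and 2.25 in M3, and only MNC replicate 1, M5 replicate 2 and M5 replicate 3 had more Rpl10 than Rpl10l. Rpl36al was at 159, 164 and 151 FPKM in Con, 147, 141 and 143 in MNC, 140.3, 158 and 136 in M1, 143, 142 and 208 in M3 and 197, 205 and 215 in M5. The M5 libraries and M3 replicate 3 had the 4 highest values, and the ratio to Rpl36a was 2.62 to 5.85. Rpl39l and Rpl10l were not called between M5 and MNC (limma adjusted p = 0.4 and 0.748), while Rpl36al was, with a difference of 0.52 (SE 0.0545, limma adjusted p = 0.0115).

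**Figure D2:**
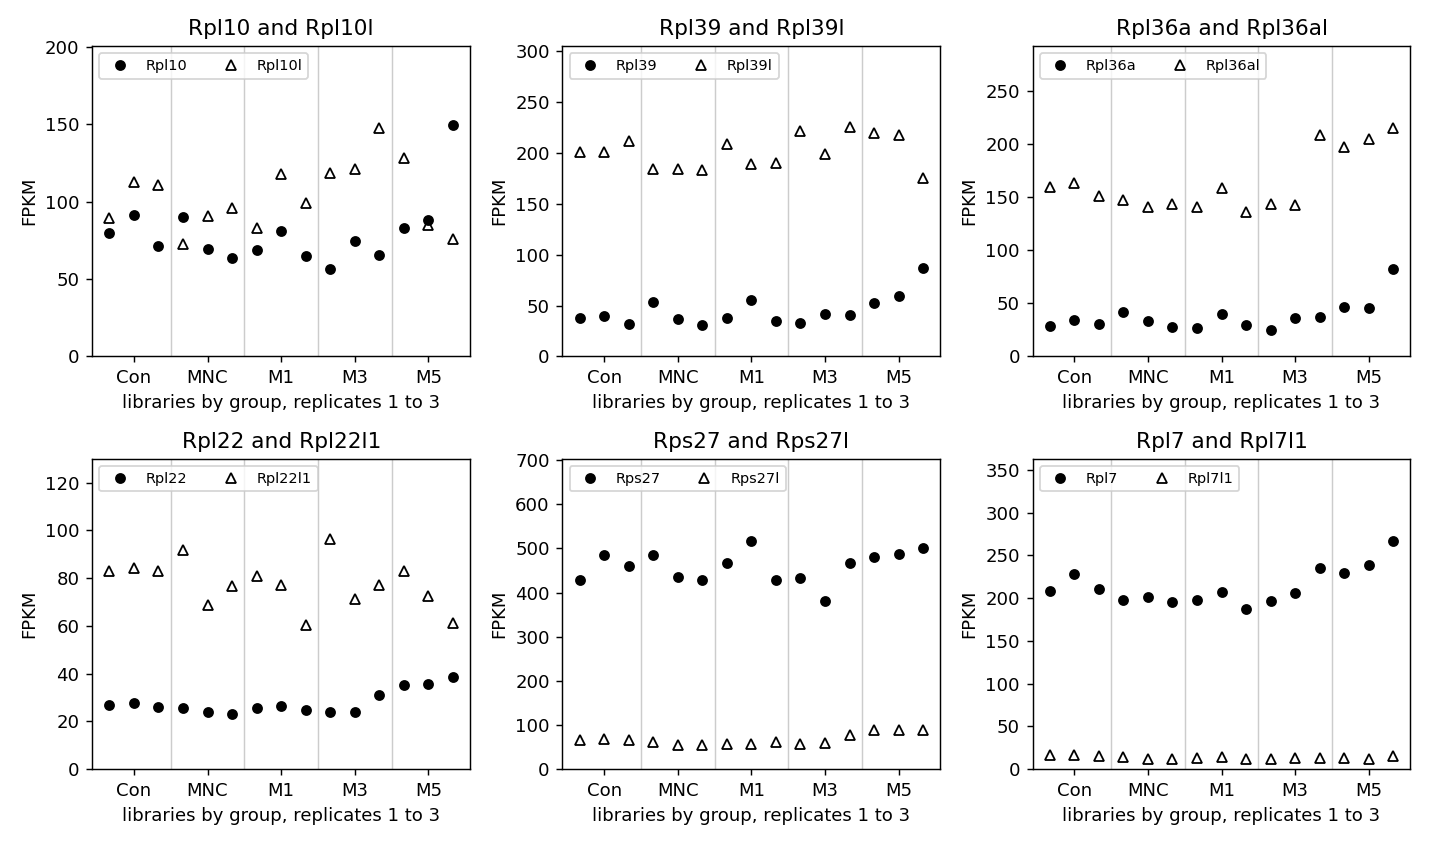
FPKM of 6 pairs of ribosomal protein paralogs in the 15 libraries, ordered by group and replicate; filled circles are the first gene named and open triangles the second. Rpl39l, Rpl36al and Rpl22l1 are above their partners in every library, Rps27l and Rpl7l1 are below, and Rpl10 and Rpl10l cross in 3 libraries.

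Rps27l, a paralog of Rps27 known as a p53 target, was at 65.6, 69.6 and 65.9 FPKM in Con, 60.7, 54.9 and 55.3 in MNC, 57.7, 56.9 and 62.2 in M1, 56.6, 58.4 and 77.6 in M3 and 88.2, 87.8 and 89.9 in M5. Rps27 was at 429, 485 and 459.5 FPKM in Con, 484, 435 and 429 in MNC, 466, 518 and 428 in M1, 434, 381 and 466 in M3 and 480.2, 487 and 502 in M5. The ratio of Rps27l to Rps27 was 0.18, 0.18 and 0.18 in M5 and 0.110 to 0.167 elsewhere. Rpl22l1 was at 83.1, 84.2 and 83.02 FPKM in Con, 91.9, 68.7 and 76.8 in MNC, 80.8, 76.9 and 60.4 in M1, 96.4, 71.1 and 77.3 in M3 and 82.8, 72.6 and 61.1 in M5. Rpl22 was at 27.04, 27.7 and 26.2 FPKM in Con, 25.6, 23.8 and 23.2 in MNC, 25.6, 26.6 and 24.7 in M1, 24.1, 24.1 and 31.2 in M3 and 35.2, 35.6 and 38.5 in M5. Here the ratio went the other way, with 2.35, 2.04 and 1.58 in M5, 3.59, 2.89 and 3.31 in MNC and 3.07, 3.04 and 3.17 in Con, and the M5 libraries had the 3 lowest ratios of the 15. These ratios were not tested. Rpl7l1, a low paralog of Rpl7, was at 17.2, 16.8 and 15.6 FPKM in Con, 13.9, 12.1 and 12.2 in MNC, 13.6, 13.8 and 12.1 in M1, 12.1, 13.3 and 12.8 in M3 and 13.1, 12.5 and 14.96 in M5. Its ratio to Rpl7 was 0.0522 to 0.0824.

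A few members changed by many times from library to library within a group. The 5 with the largest range among those with a mean of 10 FPKM or more are given here, and the low Rpl37rt, with a range of 32.95 times, is described below. Rps28, a small protein at the mRNA exit, was at 119, 23.04 and 7.84 FPKM in Con, 125, 19.8 and 8.10 in MNC, 16.6, 112 and 9.40 in M1, 92.1, 222 and 19.2 in M3 and 148, 21.7 and 4.05 in M5. Every group held a high and a low library, so its 54.8-fold range was not tied to a group. Rps18, at the head of the small subunit, was at 5.76, 6.32 and 6.86 FPKM in Con, 155, 34.1 and 10.2 in MNC, 5.98, 6.21 and 4.63 in M1, 6.78, 8.03 and 3.88 in M3 and 134, 28.2 and 7.02 in M5, and it was high in replicates 1 and 2 of MNC and of M5. Rpl3, of the catalytic region, was at 7.66, 5.54 and 7.31 FPKM in Con, 117, 23.6 and 9.28 in MNC, 6.49, 7.23 and 8.15 in M1, 5.81, 6.92 and 10.4 in M3 and 11.3, 9.65 and 11.03 in M5, with MNC replicate 1 alone above 100 FPKM. Rpl26 was at 426, 296 and 429.6 FPKM in Con, 447, 289 and 260.1 in MNC, 246, 60.8 and 242 in M1, 253, 77.00 and 25.9 in M3 and 223, 371 and 249 in M5, and M3 replicate 3, M1 replicate 2 and M3 replicate 2 were low. Rps13, with a range of 8.13 times, was high in M5 and in M3 replicate 3. Rps28, Rps18, Rpl3, Rpl26 and Rps13 have 7, 5, 7, 6 and 5 near copies in the genome, beside a median of 5 over the members. The part of read division between copies in these ranges was not tested. Among the 80 genes of 10 FPKM or more, 19 had a highest library at 2 or more times their lowest, and the median was 1.44 times.

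**Figure D3:**
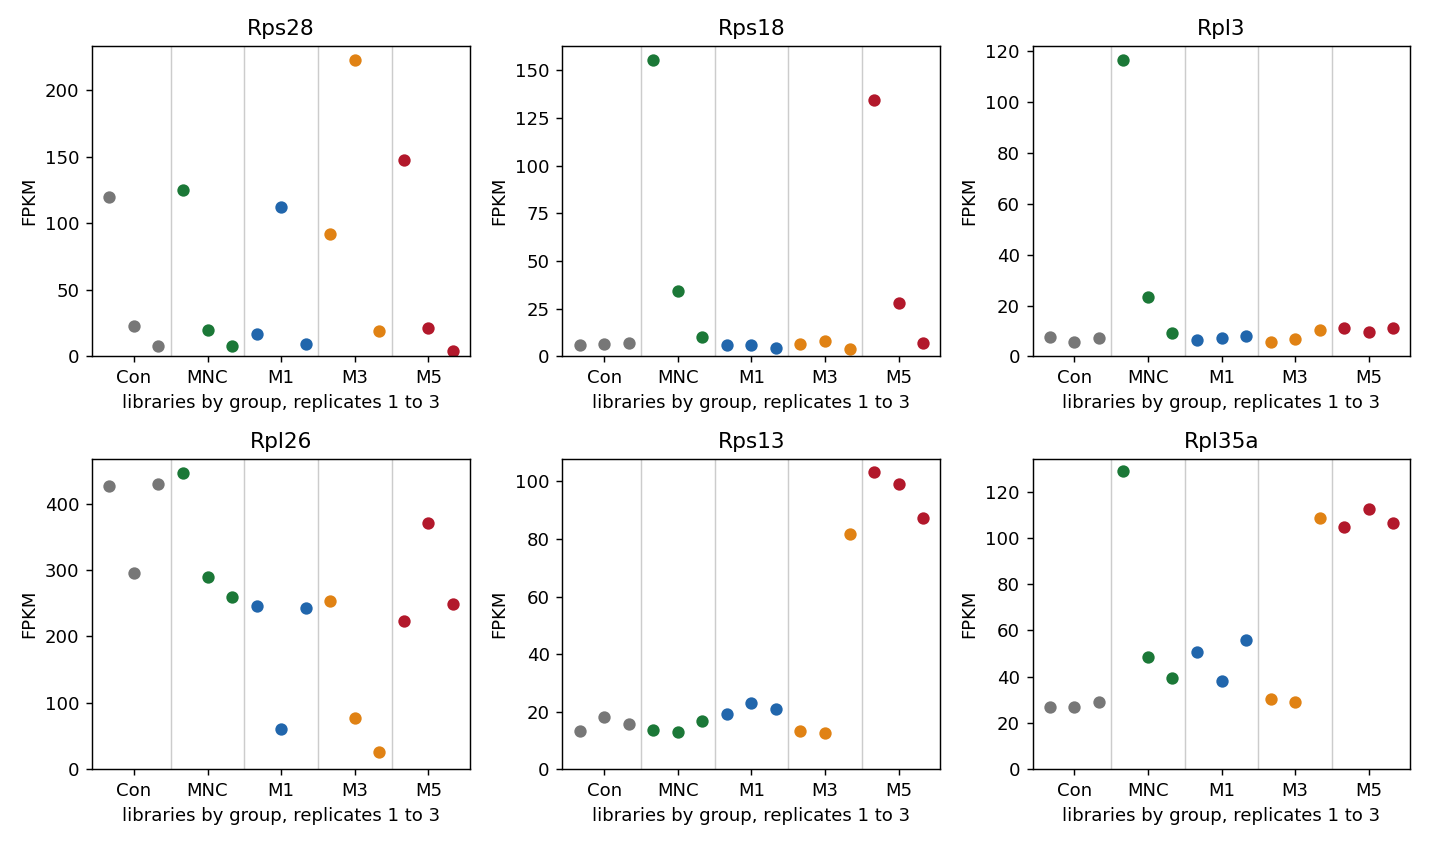
FPKM in the 15 libraries, by group and replicate, of the 5 members with the largest ratio of the highest to the lowest library among those with a mean of 10 FPKM or more, and of Rpl35a. Rps28 spans 4.05 to 222 FPKM with high and low libraries in each group, while Rps13 is at 81.8 to 103 FPKM in M5 and in M3 replicate 3 and at 23.0 or less elsewhere.

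M5 was set against MNC to ask which ribosomal protein genes differed when the M5 receptor was targeted. Of the 84 members tested, limma called 22 (adjusted p under 0.05), with 21 increased and 1 decreased in M5. This is 26.2% of them, beside 5.65% of the 14514 genes tested, 2.76% increased and 2.89% decreased. The median difference was 0.17 over the members and 0.03 over all genes on the log2(FPKM + 1) scale, and 64 of the 84 were higher in M5. When the trend with transcript length was removed, the median of the members was 0.08 and 13 were called, beside 2.94% of all genes. After centring each library on the members themselves, 11 were called higher and 4 lower, 15 of 84 beside 12.9% of all genes, and the median was -0.04 beside -0.18 over all genes. This centring removes the mean difference of the members by construction, so their median there was largely set in advance. All 3 M5 libraries lay above all 3 MNC libraries for 39 members (16.6% of all genes did so) and below them for 4 (15.5%).

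Rps13 (chr7:116331507-116334190), a protein of the body of the small subunit, had the largest difference. It was at 13.2, 18.1 and 15.7 FPKM in Con, 13.6, 12.99 and 16.7 in MNC, 19.2, 23.04 and 20.9 in M1, 13.2, 12.7 and 81.8 in M3 and 103, 99.1 and 87.1 in M5. The M5 mean of 96.5 ± 8.41 FPKM (SD, n = 3) was 6.69 times the MNC mean of 14.4 ± 1.98, a difference of 2.66 (SE 0.111, limma adjusted p = 0.000416). The groups were far apart, and M3 replicate 3 stood with 81.8 FPKM where the other M3 libraries had 13.2 and 12.7. The call held in all 19 alternatives run, with a log2 difference of 2.46 to 2.77. The part of the 5 near copies of Rps13 in the genome was not tested.

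Rps15a, also of the small subunit, was at 20.7, 20.2 and 20.2 FPKM in Con, 18.3, 17.4 and 18.2 in MNC, 18.7, 19.1 and 16.8 in M1, 17.8, 18.8 and 32.9 in M3 and 34.2, 33.96 and 34.8 in M5. It rose by 0.90 (SE 0.0571, limma adjusted p = 0.00223), with less than 1 FPKM between the M5 libraries. The call was lost in 2 of 19 alternatives (limma adjusted p up to 0.126). Rpl23, a large subunit protein that can bind Mdm2, was at 83.3, 79.8 and 76.2 FPKM in Con, 82.2, 80.9 and 86.2 in MNC, 92.7, 79.3 and 91.6 in M1, 73.8, 72.4 and 138 in M3 and 144, 151 and 153 in M5. It rose by 0.84 (SE 0.0535, limma adjusted p = 0.00223), and the call was lost in 1 of 19 alternatives (limma adjusted p 0.157). Rpl29, also of the large subunit, was at 7.43, 6.38 and 8.41 FPKM in Con, 6.01, 5.97 and 6.02 in MNC, 6.86, 6.35 and 5.96 in M1, 4.13, 5.91 and 13.2 in M3 and 12.1, 12.9 and 10.6 in M5. It rose by 0.87 (SE 0.0955, limma adjusted p = 0.0126), and the call was lost without M5 replicate 1, M5 replicate 2, MNC replicate 2 or MNC replicate 3 (adjusted p 0.0532 to 0.0691). Over all 19 alternatives the Rpl29 call was lost in 6 (limma adjusted p up to 0.16). In all 3 genes the M5 libraries and M3 replicate 3 were the 4 highest of the 15.

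Rps6 was at 4.88, 4.42 and 4.48 FPKM in Con, 1.76, 2.73 and 1.56 in MNC, 3.03, 3.86 and 3.19 in M1, 4.10, 3.89 and 5.07 in M3 and 4.89, 5.14 and 3.65 in M5. It rose by 0.89 against MNC (SE 0.186, limma adjusted p = 0.0471), and the MNC values were below all others, while M5 and Con overlapped. The call was lost in 14 of 18 alternatives, among them the omission of any MNC library or of M5 replicates 1 or 2, and the difference was -0.02 with Con as the control. The row that holds nearly all of the shared sequence, Rps6-ps4, was at 254, 254 and 252 FPKM in Con, 267, 252 and 255 in MNC, 267, 283 and 251 in M1, 262, 257 and 328 in M3 and 319.8, 321 and 351 in M5. It was called higher in M5 by 0.355 (SE 0.0607, limma adjusted p = 0.0319). Rpl37rt was the member that fell. It was at 6.16, 4.67 and 3.89 FPKM in Con, 2.91, 3.39 and 4.24 in MNC, 1.90, 3.31 and 1.93 in M1, 4.46, 6.59 and 0.61 in M3 and 0.77, 0.20 and 0.21 in M5, and fell by 1.71 (SE 0.199, limma adjusted p = 0.0149). M3 replicate 3 was low with the M5 libraries, and the call was lost without M5 replicate 2, MNC replicate 2 or MNC replicate 3 (adjusted p 0.0542 to 0.0742). Over all 18 alternatives the Rpl37rt call was lost in 5 (limma adjusted p up to 0.176). Rpl37, which shares its sequence, was at 118, 124 and 129 FPKM in M5 and 112, 117 and 108 in MNC and was not called.

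The remaining 16 members that rose had log2 differences of 0.30 to 0.80. They were Rpl34, Rpl14, Rpl21, Rpl22, Rpl36al, Rpl5, Rpl38, Rpl41 and Rpl19 of the large subunit, Rplp2 of the P stalk, and Rps29, Rps27l, Rps21, Rps24, Rps27a and Rps26 of the small subunit. The division of reads between Rpl34 and its near copy Rpl34-ps1, which was not called, is uncertain. Rpl5 forms a complex with the smallest ribosomal RNA that binds Mdm2, and Rps27a is made as a fusion with ubiquitin. Rps29 was at 352 ± 12.02 FPKM in M5 (SD, n = 3) and 225 ± 14.1 in MNC, and Rpl38 at 371 ± 22.6 and 285 ± 1.45. Between them these genes ranged from 11.50 FPKM (Rpl34) to 983 FPKM (Rpl41) in M5, so members at low and at high levels were among them. The 62 tested members that were not called had M5 means from 10.4 to 526 FPKM, with Rpl32, Rplp0 and Rps27 among the highest of them.

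The number of called members varied with the libraries used. Leaving out M5 replicate 2 gave 3 members and M5 replicate 1 gave 7, beside 0.241% and 0.586% of all genes. Omission of an MNC library gave 12, 5 and 5 for replicates 1 to 3, beside 2.49%, 0.634% and 0.413%. Without M5 replicate 3, the library with the highest marker sums of other cell types, it was 22 beside 6.52%, and 18 of these were shared with the 22 called before. Markers that moved with the comparison included those of red blood cells, of which 3 of 5 tested were called higher in M5, with sums of 148 to 491 FPKM in M5 and 21.8 to 35.4 FPKM in MNC. The spermatocyte genes Sycp1 and Hormad1 were also called higher, with 2 of 8 called and sums of 1070.0 to 1213 FPKM against 991 to 1037. Of 8 elongating spermatid genes, Odf1 was called lower and 4 had an unadjusted p under 0.05. No gene was called by limma among 6 round spermatid and 6 spermatogonial markers, of which 3 and 2 had an unadjusted p under 0.05. Of the Leydig cell, macrophage, Sertoli cell, peritubular and endothelial markers limma called none, and 1 Leydig cell and 1 Sertoli cell gene had an unadjusted p under 0.05. The part of other cell types in the result was not tested.

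**Figure D4:**
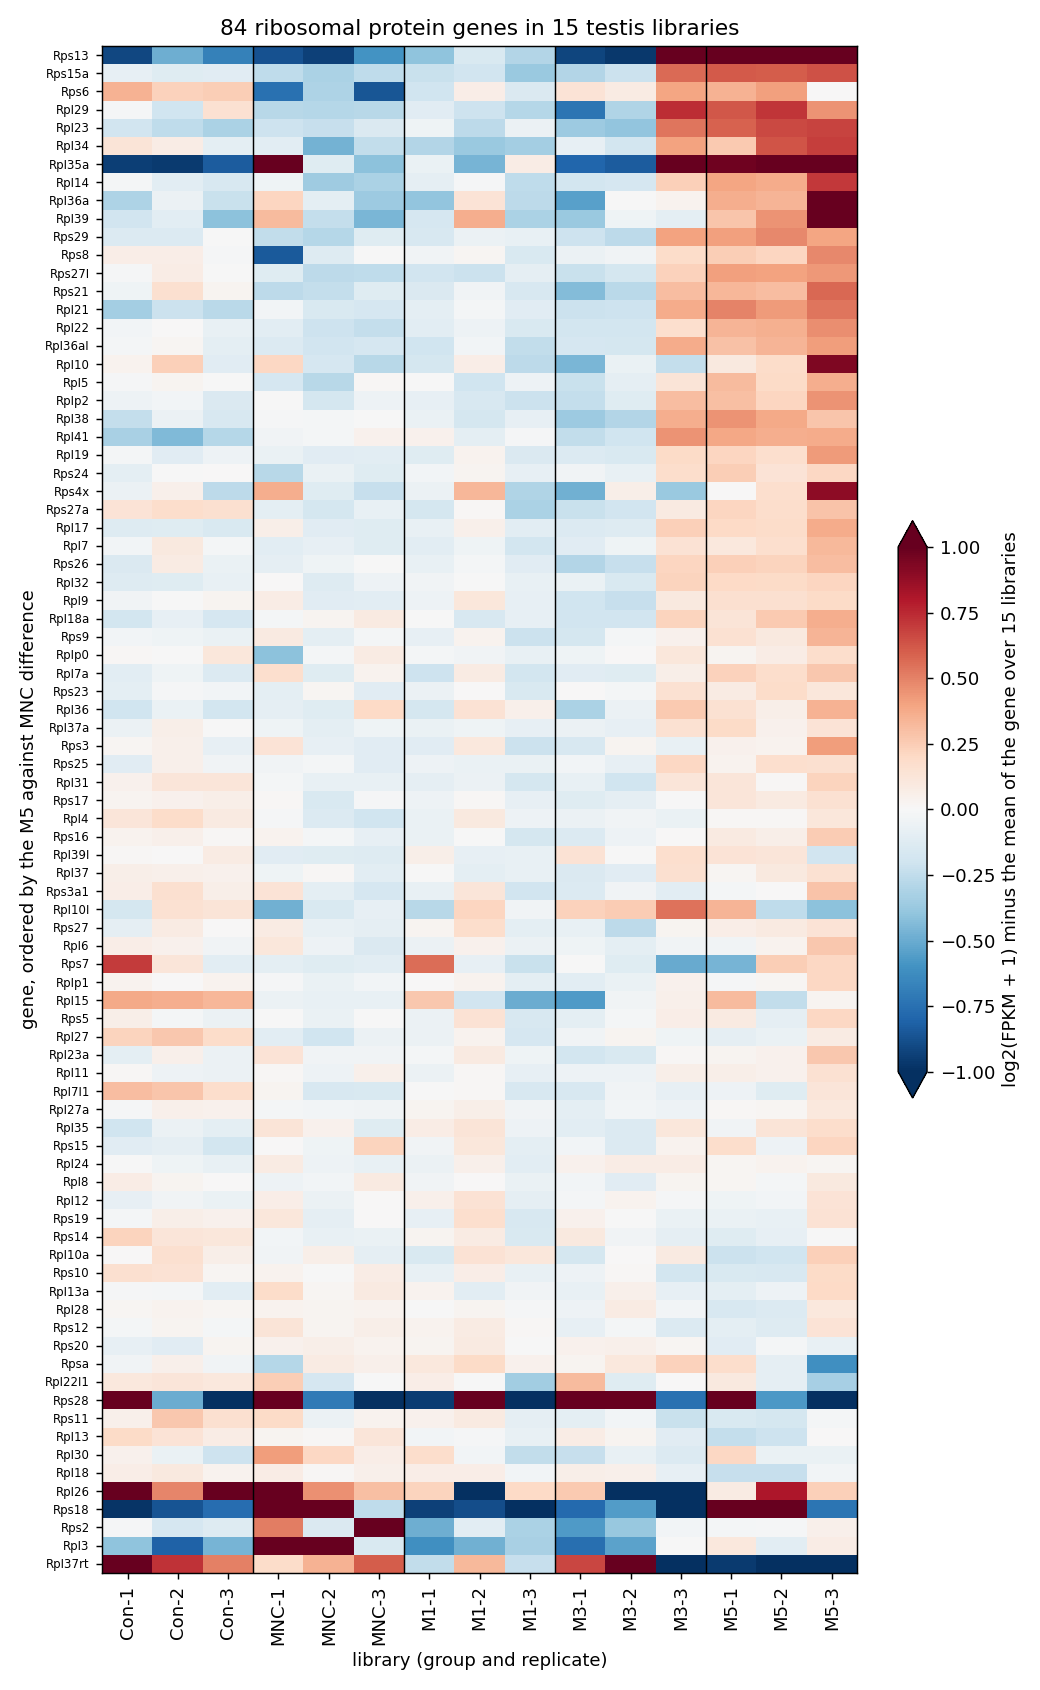
The 84 tested ribosomal protein genes (rows, ordered by their M5 against MNC difference) in the 15 libraries (columns, by group and replicate). Colour gives log2(FPKM + 1) minus the mean of the gene, cut at -1 and 1. M3 replicate 3 is above the highest MNC library in all 21 members that rose in M5, which were picked with MNC below M5.

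M3 replicate 3 was compared with the M5 pattern library by library. Of the 21 members called higher in M5, all 21 were above the highest MNC library in M3 replicate 3, against 3 in M3 replicate 1 and 2 in M3 replicate 2. These members were picked because MNC was below M5 in the same data. Passing the highest MNC library is therefore favoured for any library outside MNC. The number was 6, 13 and 5 in the M1 libraries and 11, 13 and 12 in the Con libraries. A stricter mark, the lowest M5 library, was reached by 10 of the 21 in M3 replicate 3 and by at most 2 in any Con, MNC, M1 or other M3 library. Red blood cell markers summed to 98.9 FPKM in M3 replicate 3, the highest outside M5, and spermatocyte markers to 1226 FPKM, the highest of the 15. The same counts were not made over all 400 genes called higher in M5. They therefore do not show if the likeness is particular to ribosomal protein genes. What sets this library apart was not tested.

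M5 was also compared with M1, another knockdown group, using the same M5 libraries. In M5, 20 members were called higher and 1 lower, 25% of those tested beside 6.75% of all genes (3.23% higher and 3.52% lower). The median difference was 0.19 over the members and 0.04 over all genes, and with centring on the members it was -0.09 and -0.23. Centring on the members again removes their mean difference by construction. In that setting 11 members were called higher and 14 lower, 25 of 84 beside 29.5% of all genes. Rps13 had 19.2, 23.04 and 20.9 FPKM in M1 and rose by 2.14 (SE 0.0904, limma adjusted p = 0.000356), a call that held in all 18 alternatives run. Rpl35a, a large subunit protein, was at 27.1, 26.8 and 29.2 FPKM in Con, 129, 48.6 and 39.5 in MNC, 50.5, 38.1 and 55.9 in M1, 30.2, 29.3 and 109 in M3 and 105, 113 and 106 in M5. It rose by 1.16 over M1 (SE 0.134, limma adjusted p = 0.0118). It was not called over MNC (SE 0.408, limma adjusted p = 0.297), where MNC replicate 1 had 129 FPKM.

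Rps15a rose by 0.88 over M1 (SE 0.0638, limma adjusted p = 0.00288) and Rpl29 by 0.80 (SE 0.0974, limma adjusted p = 0.0122). Rpl34 was at 8.39, 8.06 and 7.01 FPKM in Con, 6.97, 5.18 and 6.26 in MNC, 6.03, 5.63 and 5.78 in M1, 7.12, 6.57 and 10.3 in M3 and 9.32, 12.3 and 12.9 in M5, and rose by 0.86 over M1 (SE 0.125, limma adjusted p = 0.0185). Rpl34-ps1, its near copy, was at 228, 228 and 217 FPKM in MNC and 242, 253.5 and 225 in M1. In M5 it was at 233, 235 and 250 FPKM, and it was not called over MNC. Rpl37rt fell by 1.28 against M1 (SE 0.224, limma adjusted p = 0.0283). The calls of Rpl29, Rpl34 and Rpl37rt were lost when M5 replicate 2 or any M1 library was left out (adjusted p 0.0519 to 0.0989), and that of Rpl35a without M5 replicate 2 or M1 replicate 1 (0.0537 and 0.0637). Over all alternatives, calls were lost in 8 of 18 for Rpl29, 6 of 18 for Rpl34 and 9 of 17 for Rpl37rt. They were lost in 5 of 18 for Rpl35a and 1 of 18 for Rps15a. The count was 4 without M1 replicate 1, 6 without M5 replicate 2, 7 without M1 replicate 3, 11 without M1 replicate 2 and 13 without M5 replicate 1, while the share of all genes called ran from 0.386% to 1.76%. Markers of other cells also differed. The 6 Leydig cell, 6 macrophage and 5 red blood cell genes tested all had a higher mean log2(FPKM + 1) in M5 than in M1, with 1 call, the red blood cell gene Hba-a1. Among germ cell markers, the spermatocyte genes Sycp1 and Hormad1 and the round spermatid gene Catsper3 were called higher, and the round spermatid gene Acrv1 and the elongating spermatid genes Tnp2 and Odf1 lower. Their part in the result was not tested.

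Against M3, no member was called in M5 by limma, beside 0.0138% of all genes, and 28 had an unadjusted p under 0.05. Of these 27 were higher and 1 lower, beside 8.78% and 5.53% of all genes. The median difference was 0.20, beside 0.06 over all genes. All 6 macrophage and all 5 red blood cell markers tested were higher in M5 with an unadjusted p under 0.05, as were the 4 X-linked members, and limma called none of them. The part of other cell types in the result was not tested. The members with the lowest p were Rpl22, with 0.45 (SE 0.112, limma adjusted p = 0.338), Rpl39, with 0.75 (SE 0.191, limma adjusted p = 0.338), and Rps27l, with 0.47 (SE 0.122, limma adjusted p = 0.338). This count turned on M3 replicate 3. Without it, 16 members were called, 15 higher and 1 lower, beside 1.3% of all genes (0.758% and 0.537%). Rps13 then differed by 2.80 (SE 0.0895, limma adjusted p = 0.000821) and Rpl35a by 1.82 (SE 0.0614, limma adjusted p = 0.000821). In this fit M3 had 2 libraries.

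**Figure D5:**
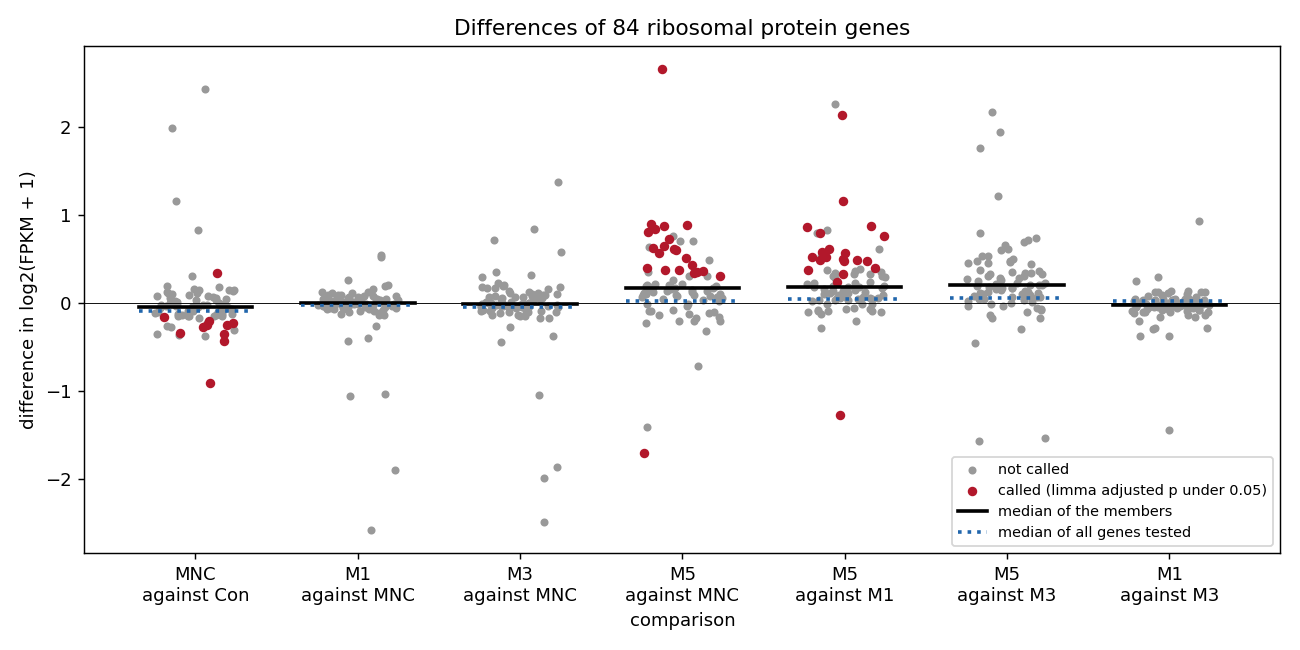
Differences in log2(FPKM + 1) of the 84 tested ribosomal protein genes in 7 comparisons. Each point is a gene, red where called at a limma adjusted p under 0.05; solid lines are the median of the members and dotted lines the median of all 14514 genes. Red points above 0 fill the comparisons of M5 with MNC and M1, those of MNC with Con lie mostly below 0, and none is red in the other comparisons.

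Few differences were seen in M1 and M3. No member was called by limma in M1 against MNC, beside 0% of all genes, and 4 had an unadjusted p under 0.05 (2 higher and 2 lower, beside 2.5% and 3.44% of all genes). Rps13 differed by 0.52 (SE 0.110, limma adjusted p = 0.819), with 19.2, 23.04 and 20.9 FPKM in M1 above 13.6, 12.99 and 16.7 in MNC in every library. Rps6 differed by 0.55 (SE 0.162, limma adjusted p = 0.819) and Rps18 by -2.59 (SE 0.890, limma adjusted p = 0.819). In M3 against MNC, no member was called, beside 0.00689% of all genes, and 7 had an unadjusted p under 0.05 (3 higher and 4 lower, beside 3.25% and 6.19% of all genes). Rps6 differed by 0.84 (SE 0.169, limma adjusted p = 0.518), Rpl10l by 0.58 (SE 0.132, limma adjusted p = 0.518) and Rpl30 by -0.37 (SE 0.0985, limma adjusted p = 0.518). In M1 against M3, no member was called, beside 0% of all genes, and 3 had an unadjusted p under 0.05, all lower in M1 (2.04% of all genes were, and 2.59% higher), namely Rpl10l (-0.37), Rps6 (-0.29) and Rpl34 (-0.38), each with a limma adjusted p of 0.899. Rpl30 was at 229.7, 212 and 193 FPKM in Con, 297, 256.4 and 233 in MNC, 252, 219 and 188 in M1, 189, 212 and 203 in M3 and 257, 213 and 213 in M5, and its MNC libraries lay above all Con and M3 libraries.

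The comparison of MNC with Con showed what differed between the vector control and the other control. Here 11 members were called, 1 higher and 10 lower in MNC, 13.1% of those tested beside 20.4% of all genes (8.03% higher and 12.4% lower). The median difference was -0.05 over the members and -0.10 over all genes. After centring each library on its median, 6 were called higher and 4 lower, 10 of 84 beside 12.9% of all genes, with a median of 0.04. Rpl41 rose by 0.35 (SE 0.0577, limma adjusted p = 0.0212). Rps6 fell by 0.91 (SE 0.150, limma adjusted p = 0.021). Rpl15 was at 13.4, 13.2 and 12.9 FPKM in Con, 9.61, 9.49 and 9.47 in MNC, 12.3, 8.67 and 6.85 in M1, 6.46, 9.78 and 10.5 in M3 and 12.8, 8.30 and 10.2 in M5, and fell by 0.43 (SE 0.0502, limma adjusted p = 0.0162).

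Rpl27 was at 129, 133 and 125 FPKM in Con, 103, 96.1 and 106 in MNC, 106, 113 and 98.1 in M1, 108, 113 and 107 in M3 and 103, 105 and 117 in M5, and fell by 0.34 (SE 0.0521, limma adjusted p = 0.0189). Rps27a was at 170.4, 175 and 173 FPKM in Con, 144, 137 and 147 in MNC, 137, 156 and 124 in M1, 132, 135 and 165 in M3 and 179, 175 and 188 in M5, and fell by 0.28 (SE 0.0435, limma adjusted p = 0.0195). Rpl7l1 fell by 0.35 (SE 0.0747, limma adjusted p = 0.03). Rps27a was among the genes higher in M5 than in MNC, near the level of Con, whereas Rpl27 was not called there. The other 5 called lower were Rps21, Rpl4, Rps27l, Rps14 and Rpl39l, with log2 differences of -0.25 to -0.15. The count was 0 without Con replicate 1, with 16 at an unadjusted p under 0.05, and 0 without Con replicate 2, with 17. The share of all genes at that unadjusted threshold was not taken in these fits, so the 16 and 17 cannot be set beside it. Leaving out MNC replicate 2 gave 3 called, and MNC replicate 3 or Con replicate 3 gave 5 each. The share of all genes called at the adjusted threshold was 0.0551% and 1.34% without Con replicates 1 and 2, and 4.4%, 7.11% and 9.25% in the other 3 fits. The elongating spermatid sums were lower in Con than in MNC in every library (11414 to 22092 against 23322 to 29577 FPKM), and all 6 interferon response genes tested were called higher in MNC. Of the other germ cell markers, 5 of 8 spermatocyte genes were called lower in MNC, and of 6 round spermatid genes 4 were called higher and 1 lower. Their part in the result was not tested.

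Other genes of translation were set beside the members. Of 77 mitochondrial ribosomal protein genes tested, 5 were called higher and 1 lower in M5 against MNC, beside 2.76% and 2.89% of all genes. Their median was 0.12, beside 0.03 over all genes, and 55 were higher. The called genes were Mrpl32 (0.71), Mrps16 (0.53), Mrpl20 (0.48), Mrps14 (0.43) and Mrpl51 (0.41), and Mrpl57 fell by 0.36. Of 40 ribosome biogenesis genes, Nop58 (0.57), Nmd3 (0.46) and Ltv1 (0.43), which act in rRNA modification and in the export and maturation of the subunits, were called higher. Of 21 translation factor and related genes whose mRNAs are known for pyrimidine-rich starts, only Eif3e (0.44) was called. Among 15 genes of mTOR signalling and the stress response, Larp1, which binds pyrimidine-rich starts, fell by 0.27 (SE 0.0483, limma adjusted p = 0.0341). Of 9 testis translation genes limma called none, and 7 had an unadjusted p under 0.05. In MNC against Con, 13 of 40 biogenesis genes were called lower and none higher, and 9 of 77 mitochondrial genes lower and 1 higher. Of all genes, 12.4% were called lower and 8.03% higher in that comparison.

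The members share features of sequence. Their median coding length was 456 bases, against 1341 for 13222 genes, and their transcripts had a median of 887 bases against 2805. Codons for lysine and arginine, the residues that contact rRNA, made up a median of 21.6% against 11.6%, and 80 of the 85 with a coding sequence were above the median of all genes. The median GC content of the coding bases was 52.3% in both. A pyrimidine-rich start was searched on the strand of the gene, within 5 bases of the annotated RefSeq start. There, a C that opened at least 5 unbroken C or T letters was counted. The letters before that C were not checked, so the whole run could begin farther upstream. A gene with several annotated starts was counted if any of them matched. Of 67 members with a start window, 31 (46.3%) had such a run, beside 23.3% of 10876 other genes and 24.6% of mitochondrial ribosomal protein genes. Among members with a window, 11 of 17 called higher in M5 against MNC had it and 18 of 46 not called. This difference was not tested, and annotated starts can be off by some bases.

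Start windows of 4 members that rose in M5 are shown, from 30 bases before to 20 bases after the RefSeq start (GRCm38.p6), 5′ to 3′. Capitals mark the part of a run that was counted. In Rps15a, Rpl14 and Rpl38, C or T letters also stand directly before the capitals. In Rpl14 this longer run begins more than 5 bases before the start.
Rps15a, chr7:118116128-118116177 (minus strand): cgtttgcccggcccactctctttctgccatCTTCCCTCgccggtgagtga
Rpl14, chr9:120571487-120571536 (plus strand): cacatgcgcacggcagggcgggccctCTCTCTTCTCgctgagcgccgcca
Rpl38, chr11:114668550-114668599 (plus strand): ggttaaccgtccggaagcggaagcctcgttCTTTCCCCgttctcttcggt
Rps13, chr7:116334171-116334220 (minus strand): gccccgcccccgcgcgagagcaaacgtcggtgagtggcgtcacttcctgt
Rps13, with the largest increase, had no run counted within 5 bases of the start, and Rpl23 had none either. The Rps13 window holds C or T runs farther from the start, which the search did not count.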

How the data were processed

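RNA of 15 testis libraries of ICR mice was sequenced after poly(A) selection on an Illumina HiSeq instrument. The authors mapped reads to reference genes with SOAPaligner and deposited 1 table of FPKM values, named RPKM in their methods, for 23510 genes. The build is mm10 per the labels, and the strand setting is not given in the sources used here. Their columns of FPKM are normalized, so no count model was run. The labels' extraction text speaks of sperm, and titles and sources of testis. One label conflicts, since the sample titled as replicate 2 of M5 is described with the column name of replicate 1, and the title was followed.

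Symbols came from RefSeq (GRCm38.p6) and matched 89.9% of IDs. Genes with a mean of 1 FPKM or more (14514) were fitted as log2(FPKM + 1) with limma 3.58.1 (lmFit, eBayes with trend) in R 4.3.3. Only the libraries of both groups entered a fit, without covariates, tests were two-sided, and genes were called at a Benjamini-Hochberg adjusted p under 0.05 over all genes. Fold changes on this scale understate changes of low genes. The fit was tested on simulated data. Copies were found with BLAST 2.17.0.

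The members, gene lists and tests were chosen with earlier results of these data known. Values are given per library for paralog pairs, the P stalk, Rpsa, the 3 highest and 3 lowest members, the 5 with the largest range among those with a mean of 10 FPKM or more, and per comparison the 5 largest called differences in each direction, or the 3 lowest p where fewer than 3 were called. Alternatives were the pseudocount, filters, centring, quantile normalization, no trend, 1 fit of all groups, a replicate block, removal of GC or length trends, Con as control, and leaving out each library.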

Additional observations from a re-analysis of the deposited data

Results flagged for a closer look

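A direct comparison of the knockdown groups M5 and M1 found 21 ribosomal protein genes past the threshold (limma, adjusted p under 0.05), beside 6.75% of all genes, which is a difference between groups given under the same kind of treatment. The differences in log2(FPKM + 1) of the members named there, M5 minus M1, were 2.14 for Rps13, 1.16 for Rpl35a, 0.88 for Rps15a, 0.86 for Rpl34, 0.80 for Rpl29 and -1.28 for Rpl37rt.

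A row outside the 87 members also moved. The row of the pseudogene Rps6-ps4, whose sequence matches all 750 coding bases of Rps6, was higher in M5 than in MNC (limma adjusted p = 0.0319), with a log2 difference of 0.355 (SE 0.0607), and its 3 M5 libraries lay above the 3 MNC libraries. The cause was not tested.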

How the results depend on the processing

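Counts below are members called at a limma adjusted p under 0.05, and medians are those of the log2 differences of the members. Centring on the members removes their mean difference by construction. The medians in that setting were therefore largely set in advance and do not test the result. The number called in M5 against MNC (22) became 14 with no filter, 11 with median centring, 10 with eBayes without trend and 13 with the length trend removed (1.97%, 1.25%, 1.48% and 2.94% of all genes), and its median (0.17) became 0.0828 with the length trend removed, -0.0371 with centring on the members and 0.12 with Con as control. In M5 against M1 the count (21) became 11 with median centring (1.74% of all genes), and the median (0.19) became 0.12 with median centring, -0.0866 with centring on the members, 0.23 with quantile normalization and 0.13 with the length trend removed. In M5 against M3 the median (0.20) became 0.0964, -0.0449, 0.15 and 0.12 with median centring, centring on the members, the GC trend removed and the length trend removed. In MNC against Con the count (11) became 6 with no filter, 3 with centring on the members, 6 with eBayes without trend and 7 with all groups in 1 fit (6.94%, 4.72%, 17.6% and 21.5% of all genes), and the median (-0.05) became 0.0425, -0.13 and 0.0189 with median centring, quantile normalization and the GC trend removed. With Con as control, M5 had 33 members called, 29 higher and 4 lower, beside 21.7% of all genes. Of these 33, 20 were shared with the 22 called over MNC. With all groups in 1 fit, M5 against MNC had 26 called, beside 16.7%. With Con as control, M1 had 13 members called, beside 34.2% of all genes, and M3 had 3, beside 22.1%. The M1 median was then -0.0471, beside -0.12 over all genes. The median of M1 against MNC became 0.0662 with centring on the members, and that of M3 against MNC 0.0573, 0.0325 and 0.0503 with median centring, centring on the members and the GC trend removed. Rps6 changed sign with Con as control, to -0.0182 in M5, -0.36 in M1 and -0.0688 in M3.

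Leaving out 1 library at a time gave 3 to 22 members called in M5 against MNC, 4 to 26 in M5 against M1, 0 to 16 in M5 against M3 and 0 to 12 in MNC against Con, beside 0.241% to 6.52%, 0.386% to 11.6%, 0% to 1.3% and 0.0551% to 17.2% of all genes, and the 0 counts had 8 to 21 members at an unadjusted p under 0.05. The share of all genes at the unadjusted threshold was not taken in these fits. The medians ranged from -0.0726 to 0.0462 in M1 against M3, -0.0528 to 0.0401 in M3 against MNC, 0.17 to 0.24 in M5 against M1 and 0.14 to 0.24 in M5 against M3. Where a group was left with 2 libraries, the spread was pooled over the fit.

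The replicate numbers showed no clear pairing of the samples. Over 30 pairs of same-numbered libraries the correlation of deviations ran from -0.399 to 0.193, and 5 were above 0.1. For pairs with different numbers it ran from -0.294 to 0.362. Whether same-numbered libraries were handled together was not tested. With the replicate block the count was 2 in M5 against MNC, 2 in M5 against M1 and 0 in MNC against Con (21 at an unadjusted p under 0.05), beside 0.0965%, 0.269% and 0.0689% of all genes. These shares are at the adjusted threshold, and the unadjusted share was not taken. With the GC trend removed and the replicate block it was 1, 1 and 7, beside 0.0599%, 0.12% and 9.52%, with medians of 0.0503 in M3 against MNC, 0.0189 in MNC against Con and 0.15 in M5 against M3. GC content was known for 92.1% of genes tested. Of the 30 named gene results, 3 changed sign, and 90 of 545 alternative values lost the threshold and 3 gained it. The absolute depth is unknown, and 3 libraries per group limit the precision.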
